A study of Mus musculus with 4 samples.

Results

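The Hox genes encode homeodomain transcription factors that lie in 4 clusters, HoxA on chromosome 6, HoxB on chromosome 11, HoxC on chromosome 15 and HoxD on chromosome 2. Here 38 Hox genes, of 21887 protein-coding genes in the RefSeq table of GRCm38.p6, were followed together with every WT1 binding call whose midpoint lay in a cluster or within 100 kb of its outermost listed gene. These 4 windows span 1285 kb and held 54 of the 17234 regions that the deposited table gives for both WT1 replicates, 91 of the 53132 peaks of replicate 1 and 154 of the 57641 peaks of replicate 2. The clusters were selected on the number and the values of the binding calls around them in these same lists, so all counts below are descriptions and none carries a test.

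WT1 is a zinc-finger transcription factor that the kidney needs from its earliest progenitors to the mature podocyte. Chromatin immunoprecipitation and sequencing (ChIP-seq) was done on kidneys dissected from wild-type embryos at E18.5, late in gestation, on a mixed background of C57Bl6 crossed with B6DBA/F1. There were 2 samples with a WT1 antibody and 2 with IgG; the latter were not analysed here, so no background of the same kind stands beside the counts. In whole kidneys, binding in few cells and weak binding in many cannot be told apart, and the peak lists hold no expression values against which to check the tissue.

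Hox genes are numbered by paralogue group, from 1 at the anterior end of a cluster to 13 at the posterior end, and genes of one group in different clusters descend from 1 ancestral gene. Low-numbered genes are expressed further towards the head and high-numbered genes towards the tail. The group 11 genes Hoxa11, Hoxc11 and Hoxd11 are required together for the kidney to form, and Hoxb7 is expressed in the ureteric bud, the epithelium that becomes the collecting duct.

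Each region of both replicates carries a deposited value read here as the irreproducible discovery rate (IDR). This error rate is low where both replicates rank a site consistently high. Weak sites can have a high IDR also where their values in the replicates are alike. A region is termed reproducible where this rate does not exceed 0.05. Each peak of a replicate carries 1 deposited significance value under 0.05, a p-value or q-value, and for a region the smallest value among the peaks it overlaps is given. The Hox windows held 42.0 regions per Mb against 6.51 per Mb in the whole table, and 16.3 against 1.67 reproducible regions per Mb. Of the 54 regions, 21 were reproducible (38.9%, exact Clopper-Pearson 95% interval 25.9 to 53.1, counting error over regions only), beside 25.6% of all regions. Taken singly, the replicates gave close counts: of the 4411 peaks with the smallest values genome-wide, 21 of replicate 1 and 18 of replicate 2 lay in the Hox windows.

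RefSeq promoter windows, from 250 bases before to 50 after a start, were at hand for 22 of the 38 genes (24 windows). A region of both replicates touched 3 of these 24 (12.5%), at Hoxa2, Hoxa11 and Hoxd11, and no reproducible region touched any. Over all 32851 windows of the table the shares were 4.47% and 1.91%. Hoxb9 and Hoxb3 are not among the 22 genes, and a reproducible region spans the lower-coordinate boundary of each, the 5′ side in HoxB, whose genes run on the plus strand. Replicate 2 alone had a peak in 2 more of the 24 windows, at Hoxa6 (value 0.0297) and Hoxa10 (0.0143). Over all 32851 windows it alone had a peak in 1572. The upstream bases of the 3 touched windows follow, with those of Gm30528, a long non-coding RNA gene beyond Hoxc4, since its promoter window is the one with the lowest IDR in the 4 Hox windows. They are from RefSeq (GRCm38.p6), 5′ to 3′ on the gene's strand, and capitals mark the bases inside a peak of both replicates.
Hoxa2, chr6:52164832-52165081, minus strand: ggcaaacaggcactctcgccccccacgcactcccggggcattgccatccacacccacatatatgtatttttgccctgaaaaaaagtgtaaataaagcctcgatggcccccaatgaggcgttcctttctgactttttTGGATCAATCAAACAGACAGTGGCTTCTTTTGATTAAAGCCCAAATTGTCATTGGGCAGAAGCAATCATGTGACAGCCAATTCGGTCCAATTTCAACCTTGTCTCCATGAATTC
Hoxa11, chr6:52245811-52246060, minus strand: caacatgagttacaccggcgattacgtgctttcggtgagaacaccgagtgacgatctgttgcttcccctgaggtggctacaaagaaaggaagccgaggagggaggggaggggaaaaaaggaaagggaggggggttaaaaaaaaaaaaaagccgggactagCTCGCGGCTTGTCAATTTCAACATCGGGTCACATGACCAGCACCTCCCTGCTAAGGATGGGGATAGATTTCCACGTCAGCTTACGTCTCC
Hoxd11, chr2:74679308-74679557, plus strand: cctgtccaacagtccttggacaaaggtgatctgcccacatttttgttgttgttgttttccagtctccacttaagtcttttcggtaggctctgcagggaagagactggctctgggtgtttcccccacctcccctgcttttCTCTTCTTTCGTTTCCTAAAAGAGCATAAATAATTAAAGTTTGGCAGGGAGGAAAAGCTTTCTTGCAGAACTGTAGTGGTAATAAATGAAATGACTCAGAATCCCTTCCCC
Gm30528, chr15:103060556-103060805, minus strand: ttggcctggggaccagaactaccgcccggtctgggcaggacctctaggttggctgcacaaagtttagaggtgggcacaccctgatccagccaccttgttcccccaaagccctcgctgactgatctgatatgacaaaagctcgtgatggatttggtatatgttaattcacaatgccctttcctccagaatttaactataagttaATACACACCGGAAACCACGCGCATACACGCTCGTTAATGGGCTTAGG

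At Hoxa2, which patterns the hindbrain and the branchial arches, the region chr6:52164821-52165021 had values of 0.00266 in replicate 1 and 1.42e-06 in replicate 2. Its IDR of 0.0608 was the lowest among the Hox regions that missed the threshold, and the highest among those that passed was 0.0346. At Hoxa11 the peaks had the same first and last base in both replicates (chr6:52245720-52245900), with values of 0.00285 and 0.00479 and an IDR of 0.162. In the printed sequence the change from small letters to capitals falls inside agct, where AluI cuts, an enzyme the labels name for library preparation. At Hoxd11 replicate 2 had a wide peak (chr2:74679259-74679752, value 0.000975) and replicate 1 a narrow one inside it (chr2:74679447-74679575, value 0.0371). The IDR of this region was 0.504. The region at Gm30528 had values of 3.66e-28 and 3.75e-40. Since Gm30528 was picked for its low IDR, its smaller values than those at the 3 Hox genes are no result about Hox start sites.

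The promoter windows were also searched on both strands for letters that WT1 and the related factor EGR1 bind. No reproducible region touched any of the 24 Hox windows, so the search does not describe the sequence at reproducible Hox regions. GCGTGGGAG was in none of the 24 Hox windows and in 0.472% of all windows, and TCCTCCTCC was in none and in 3.03%. With 24 windows, the absence of letters this rare is no sign of a shortage. GCGGGGGCG was in 1 window, that of Hoxb8, against 2.91% of all. The short form GTGGGNG, which GCGTGGGAG contains, was in 10 of 24 Hox windows (41.7%) and 31.6% of all. It had 2 matches in the printed bases of Hoxa2 and 1 in those of Hoxd11, none of them among the capitals. The match at Hoxd11 lies inside the wide peak of replicate 2, which covers the whole window.

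**Figure D1:**
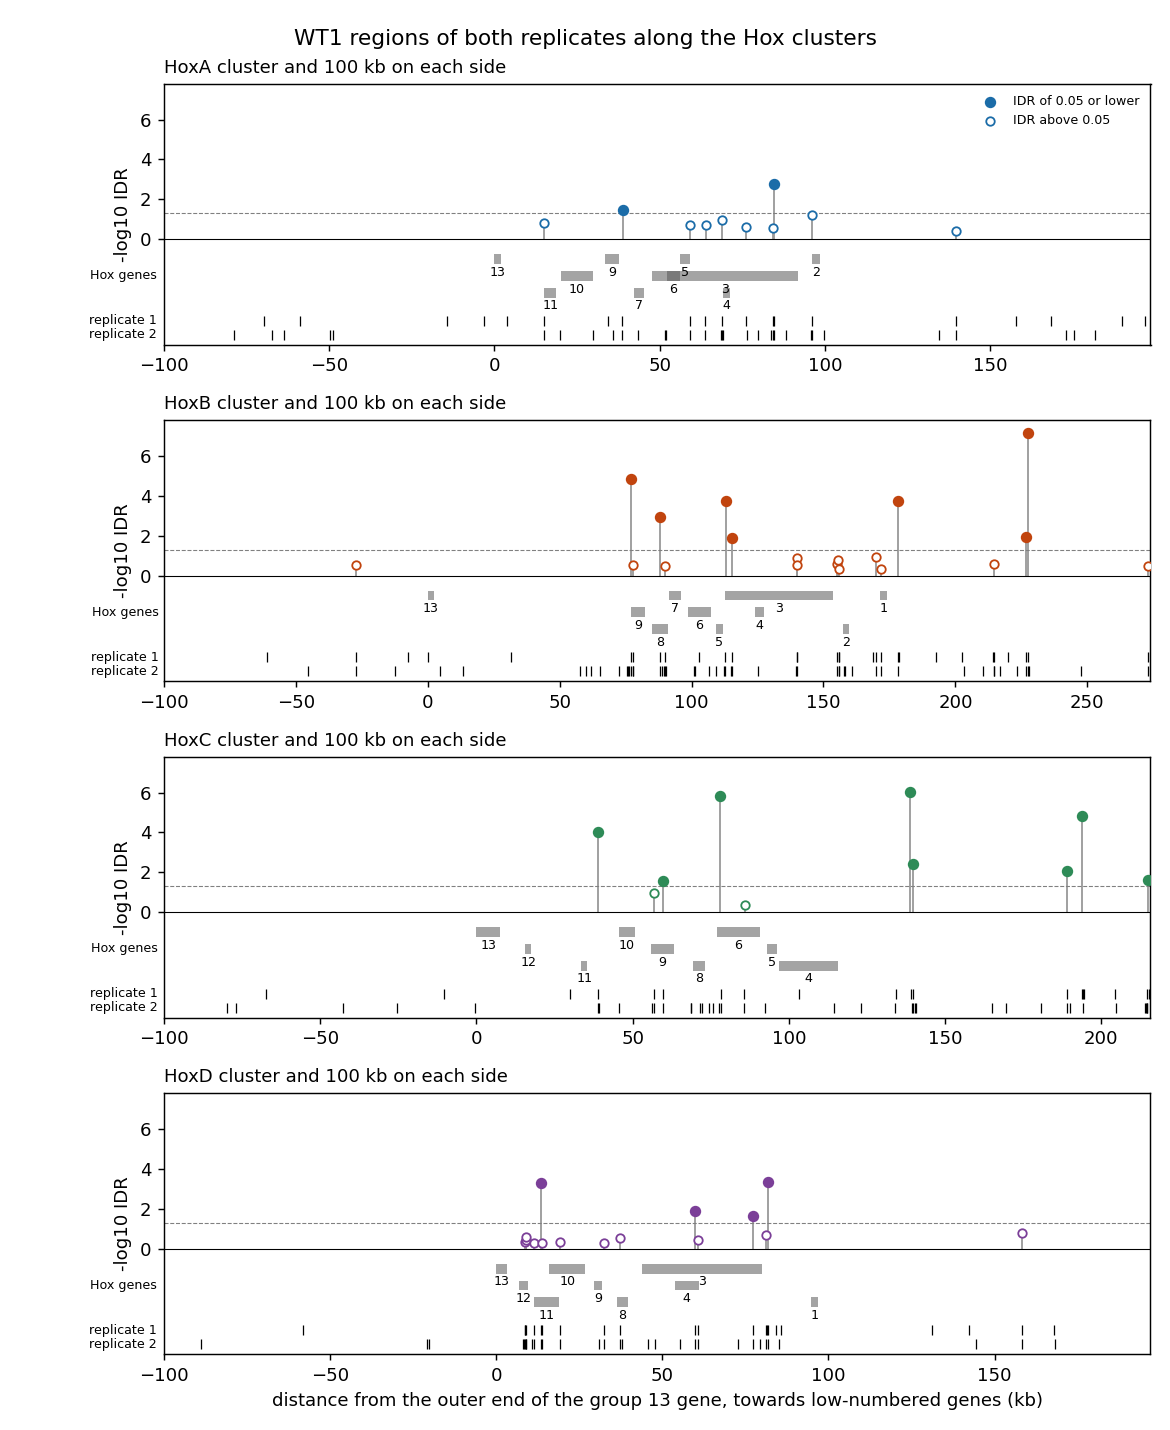
Map of the 4 Hox windows, with distance in kb from the outer end of the group 13 gene on the x axis and −log10 of the IDR on the y axis. Stems are regions of both replicates, filled where the IDR is 0.05 or lower (dashed line); grey boxes are RefSeq gene spans with their paralogue number, and ticks are the peaks of replicates 1 and 2. The tallest stem stands beyond Hoxb1, and the flank beside the group 13 gene holds 1 open stem in HoxB and none in the other clusters.

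Binding was laid out unevenly along the clusters, as the map of the Hox windows shows. The clusters proper, from the outermost gene to the outermost gene, held 41 regions over 485 kb (84.5 per Mb). Of these, 29 had their midpoint inside the span of a Hox gene and 12 lay between Hox genes. Some of the 12 lay inside other genes, such as Hoxb3os and Haglr. The spans of Hoxa3, Hoxb3 and Hoxd3 alone are 44009, 40830 and 36279 bp long. The share of the clusters inside gene spans was not computed, so these counts show no preference for genes. The flanks held 13 regions. The 4 flanks beside the group 13 genes held 1 region, not reproducible, and the 4 flanks on the low-numbered side held 12, of which 8 were reproducible. All of those 8 belonged to HoxB and HoxC. Of all its peaks, replicate 1 had 10 in the flanks beside group 13 and 29 in the others, and replicate 2 had 16 and 38. Without the peaks shared between replicates these counts were 9 and 13 for replicate 1 and 15 and 24 for replicate 2. Reproducible regions were wider than the rest, with a median of 438 bp against 199 bp. In the whole table they had a median of 372 bp, against 224 bp for all regions.

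Within 10 kb of its span, 22 of the 38 Hox genes had a reproducible region (57.9%), beside 13.6% of all protein-coding genes. Hox genes are close neighbours, so these 22 genes shared 14 distinct regions, 10 of which lay near more than 1 Hox gene and the busiest near 4. The remaining 7 reproducible regions had no Hox gene within 10 kb. When each region was given only to the Hox gene with the nearest end, 12 genes had one. Counting all regions, 32 of 38 genes had one within 10 kb (84.2%), beside 33.6% of all genes. By cluster the genes with a reproducible region were 4 of 10 in HoxA, 8 of 10 in HoxB, 5 of 9 in HoxC and 5 of 9 in HoxD.

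The HoxC window had the highest share of reproducible regions, 8 of 10 (exact 95% interval 44.4 to 97.5, counting error over regions only, and no test). In the cluster without its flanks the share was 3 of 5. Inside the cluster the lowest IDR was at Hoxc6, a gene of the thoracic level, where chr15:102999065-102999755 lay in the gene 1.18 kb from its nearer end. Its values were 6.64e-22 in replicate 1 and 2.04e-48 in replicate 2, and its IDR of 1.41e-06 ranked 305 of 17234. This region also lay within 10 kb of Hoxc8.

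Between Hoxc11, one of the group needed for kidney formation, and Hoxc10, a gene of the lumbar level, lay chr15:102959765-102960217. It stood 3.29 kb from Hoxc11, with values of 2.29e-06 and 1.65e-24 and an IDR of 9.26e-05. The third reproducible region of the cluster was inside Hoxc9 (chr15:102980747-102981103), which acts in motor neuron identity, at 2.84e-08 and 8.01e-05 (IDR 0.0287). It is 1 of 3 reproducible Hox regions with the larger value in replicate 2.

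Beyond Hoxc4 the low-numbered flank of HoxC held 5 regions, all reproducible. The strongest, at the start of Gm30528 (chr15:103060133-103060754), was 23.6 kb from Hoxc4 with an IDR of 9.04e-07, rank 237. A second followed at chr15:103060829-103061196, with values of 5.83e-05 and 1.62e-10 and an IDR of 0.00376. The widest region of the 4 windows, 1085 bp, lay 78.5 kb from Hoxc4 (chr15:103114807-103115891) and joined 3 peaks of replicate 1 with 1 of replicate 2. Its smallest values were 9.49e-22 and 6.82e-69, and its IDR was 1.54e-05. The other pair lay 73.2 and 98.8 kb from Hoxc4, with IDRs of 0.00822 and 0.0249, the farther one inside the non-coding gene D930007P13Rik. No region of both replicates lay within 10 kb of Hoxc4 itself, nor of Hoxc12 or Hoxc13, a gene of hair and nails.

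HoxB held the most regions, 19, of which 7 were reproducible. The lowest IDR of all Hox windows, 7.28e-08, belonged to chr11:96421393-96422143, which ranked 3 of 17234 and is listed at a value of 0 in both replicates. It lay 53.5 kb beyond Hoxb1 and 25.1 kb from Gm11529, the nearest other protein-coding or long non-coding RNA gene of the RefSeq table. A neighbour at chr11:96421067-96421325 had 1.02e-04 and 2.7e-09 (IDR 0.0114). Nearer to Hoxb1, a gene of hindbrain patterning, chr11:96372241-96373103 stood 4.42 kb outside it, with 2.55e-12 and 1.08e-20 (IDR 1.82e-04).

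Inside the HoxB cluster the reproducible regions sat at Hoxb9, Hoxb8 and the lower-coordinate end of Hoxb3. The region at Hoxb9 (chr11:96271113-96271382) spans the 5′ boundary of the gene at position 96271330, with its midpoint 82.5 bp outside, at 3.05e-10 and 2.58e-24 (IDR 1.37e-05). That in Hoxb8 (chr11:96282027-96282514) had 1.15e-12 and 1.02e-09 (IDR 0.00115), the smaller value being in replicate 1. It also lay 3.33 kb from Hoxb7. The first of the pair at Hoxb3 (chr11:96307048-96307307), spans the boundary of that gene at position 96307101, with its midpoint 76.5 bp inside and 1.06 kb from Hoxb5, and had 4.04e-09 and 2.53e-18 (IDR 1.78e-04). The second (chr11:96309353-96309619) had 9.03e-07 and 2.41e-06 (IDR 0.013).

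Hoxb2 and the long upper part of Hoxb3 had regions only above the threshold. Hoxb13, a gene of the prostate and hindgut, stands apart from the rest of the cluster. No region of both replicates lay within 10 kb of it, and its nearest reproducible region was 74.6 kb away.

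HoxD had 15 regions, 14 of them inside the cluster, which at 144 per Mb was the densest of the 4; the others had 91.4 (HoxA), 74.7 (HoxB) and 43.2 (HoxC). Of the 14, 4 were reproducible (28.6%), beside 25.6% of all regions. The HoxD cluster also had the most reproducible regions per Mb, 41.3 against 20.3 (HoxA), 23.0 (HoxB) and 25.9 (HoxC). One lay inside Hoxd11 (chr2:74681490-74681803), with like values in the replicates, 2.87e-11 and 3.1e-12 (IDR 5.09e-04). It was the one reproducible region near Hoxd10, Hoxd11 and Hoxd12. Around it stood 6 regions above the threshold, with IDRs from 0.274 to 0.531, in which replicate 1 had values between 0.0261 and 0.0371 and replicate 2 between 3.17e-04 and 0.0123.

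The other 3 lay at the anterior end of HoxD. One was in Hoxd4 (chr2:74727744-74728241), which lies inside the long RefSeq span of Hoxd3, with 8.41e-04 and 1.44e-11 (IDR 0.0137). Another was near the upper end of Hoxd3 (chr2:74745298-74745735), with 3.07e-04 and 8.36e-09 (IDR 0.0242). The strongest was in the non-coding gene Haglr between Hoxd3 and Hoxd1 (chr2:74749687-74750261), with 2.46e-07 and 1.32e-29 (IDR 4.77e-04). Hoxd8 and Hoxd9 had regions above the threshold only, and Hoxd1 had none within 10 kb. Hoxd13, a gene of digits and genitalia, had its nearest reproducible region 10.04 kb away, just past the 10 kb limit.

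HoxA had the fewest reproducible regions, 2 of 10 (20%, exact 95% interval 2.52 to 55.6), beside 25.6% of all regions. Its window held 6.70 reproducible regions per Mb, against 1.67 in the whole table. Hoxa3, required for the thymus and parathyroid, has a RefSeq span of 44009 bp that takes in Hoxa4, Hoxa5 and Hoxa6. In its anterior part lay chr6:52176091-52176325, with 1.68e-05 and 3.01e-14 (IDR 0.00169). The other reproducible region, chr6:52222032-52222252, lay between Hoxa7 and Hoxa9, 955 bp from Hoxa9, with 0.00196 and 3.95e-06 (IDR 0.0346). Hoxa4 and Hoxa5, the latter a gene of lung development, each had 2 regions with the nearest end, at IDRs of 0.109 to 0.251. Hoxa13, a partner of Hoxd13 in limb and genital development, had no region within 10 kb.

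**Figure D2:**
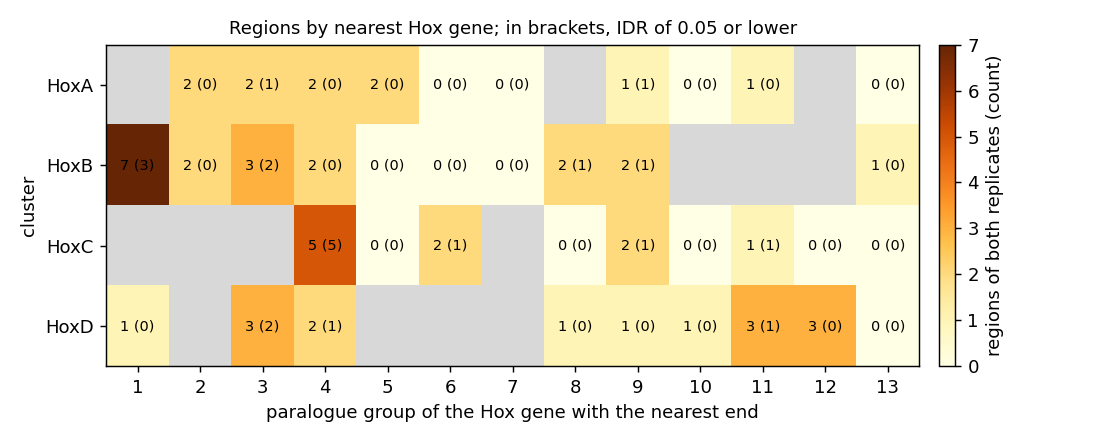
Count of regions of both replicates by cluster (rows) and paralogue group of the Hox gene with the nearest end (columns), with the number at an IDR of 0.05 or lower in brackets. Shade gives the count, and grey cells hold no gene of the list; the largest counts are the 7 regions nearest to Hoxb1 and the 5 nearest to Hoxc4, which include those in the flanks.

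Across clusters, the grid of regions by paralogue group shows the most regions for group 4 (11, with 6 reproducible), followed by groups 1 and 3 with 8 each, of which 3 and 5 were reproducible. The flank beyond Hoxc4, 23.6 to 98.8 kb away, held 5 of the 11 regions of group 4. All 3 genes of group 3 had a reproducible region inside or within 10 kb, as had all 3 of group 10, although no reproducible region had a group 10 gene as its nearest. In group 11, Hoxc11 and Hoxd11 had 1 each and Hoxa11 none, its lowest IDR being 0.162. Neither gene of group 2 and none of the 4 genes of group 13 had one. The long spans of Hoxa3, Hoxb3 and Hoxd3 give group 3 more sequence to be counted over.

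The replicates' own peak lists were of unequal length here. Replicate 2 had 1.69 times as many Hox peaks as replicate 1, beside 1.08 times in all. Of the Hox peaks of replicate 1, 59 (64.8%, exact 95% interval 54.1 to 74.6) overlapped a peak of replicate 2, beside 34.1% of its whole list. Of those of replicate 2, 56 overlapped one of replicate 1 (36.4%, 28.8 to 44.5), beside 30.8%. Inside the clusters proper these shares were 80.8% and 41.0%. Replicate 2 thus left 98 Hox peaks without a partner and replicate 1 left 32. The strongest unpaired peaks of replicate 2 were in Hoxb8 (chr11:96283650-96283954, value 2.5e-05), 19.4 kb from Hoxb9 (3.63e-05), 200.5 bp from Hoxa10 (6.02e-05) and 387.5 bp from Hoxa2 (8.46e-05). The strongest of replicate 1 was in Hoxc4 (chr15:103024258-103024475), at 0.00196. Hoxc12 had no peak of either replicate within 10 kb.

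**Figure D3:**
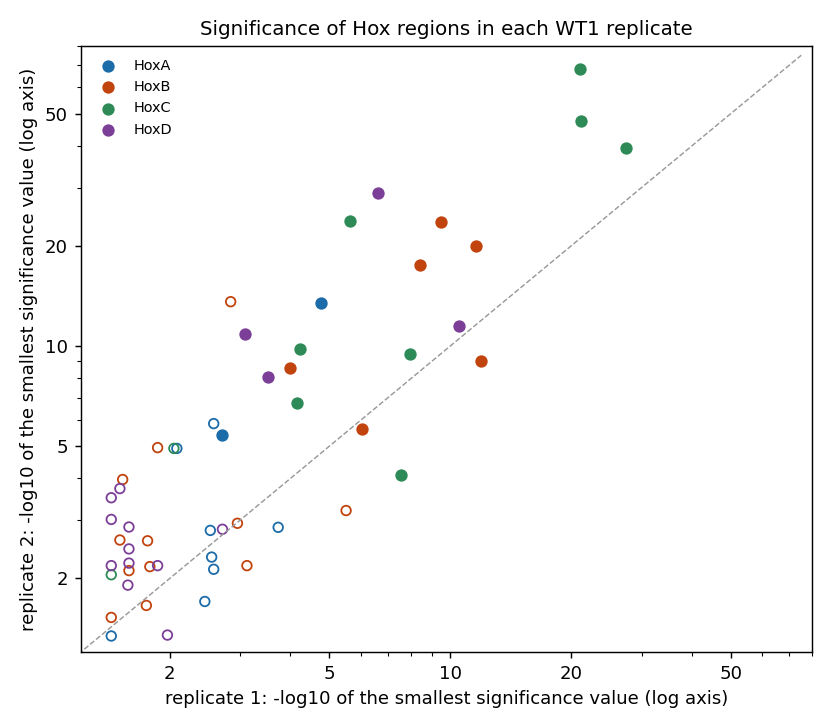
Smallest significance value of each Hox region in replicate 1 (x axis) and replicate 2 (y axis), as −log10 on log axes; colours are clusters, filled points have an IDR of 0.05 or lower, and the dashed line marks equal values. The 53 regions with values above 0 are drawn, and 40 of them lie above the line, with smaller values in replicate 2.

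In the plot of significance by replicate, 40 of the 54 regions had the smaller value in replicate 2 and 13 in replicate 1. The region listed at 0 in both was equal. Replicate 2 also had the smaller median value over its whole peak list, 0.0125 against 0.0261 for replicate 1. The same count over all regions was not made. Of the 21 reproducible regions, 17 had the smaller value in replicate 2. Among the 21, replicate 1 ran from 0 to 0.00196 with a median of 2.84e-08, and replicate 2 from 0 to 8.01e-05 with a median of 3.1e-12. The other 33 regions had medians of 0.0164 and 0.00253. Their ranges overlap those of the reproducible regions: near 40.5 kb beyond Hoxb1, for example, replicate 2 had 2.48e-14 where replicate 1 had 0.00145, and the IDR was 0.257.

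Genes that act with the Hox proteins were counted in the same way, each beside the 13.6% of all protein-coding genes with a reproducible region within 10 kb. Of the 9 genes of the Pbx, Meis and Pknox families, which encode homeodomain partners that bind DNA with Hox proteins, 6 had one. The lowest IDRs were at Pknox2 (3.29e-07, inside the gene) and Pknox1 (1.01e-05), and Meis1 had 1 inside the gene (0.00339). Of 23 Polycomb and Trithorax genes and histone demethylases that keep Hox genes silent or active, 8 had one. Among them were the demethylase genes Kdm6a (2.97e-06) and Kdm6b (7.87e-04) and the methyltransferase genes Kmt2d (1.38e-05) and Ezh1 (9.21e-05).

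Of 8 regulators of Hox genes along the body axis, 3 had one, among them Cdx1 (0.00626) and Egr2 (0.0185). Of 7 partners and targets of the group 11 genes in the kidney, 2 had one, Pax2 (0.0139) and Osr1 (0.0447). Of 19 genes that neighbour the clusters, 5 had one, among them Snx10 (4.83e-04) near HoxA and Smug1 (2.7e-05) near HoxC. For comparison, 2 of 34 other homeobox genes had one, Uncx and Lhx3, and 11 of 19 Sox genes, another family of developmental transcription factors. These differences between lists were not tested.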

How the data were processed

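The deposited files are 1 peak list for each of 2 WT1 ChIP-seq samples and 1 table of regions common to the pair. Their coordinates are on mm10, per the submitters' processing notes. Not given in the sources used here are the aligner, the caller of the peaks and any use of IgG reads. The authors' value per peak is a p-value or q-value under 0.05 (which one is not stated). That of the table, whose rows are named IDR, is read as an error rate and runs from 5.19e-08 to 0.555. No file holds read counts, so depth is unknown. Per the labels' protocols, library DNA was digested with MseI and with AluI or HaeIII.

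Regions and peaks were placed by midpoint in windows of 100 kb around the outermost listed Hox genes (RefSeq, GRCm38.p6, the assembly behind mm10), using Python 3.11.15, pandas 2.3.3 and scipy 1.17.1. A gene had a region when the midpoint lay within 10 kb of its span. Peaks were shared at an overlap of 1 bp. Density over the whole table is per length between the outermost peaks of each chromosome. Shares have exact Clopper-Pearson 95% intervals. The functions were tested on simulated data. All reproducible regions of the windows and the Hox genes near them are named. Members, lists and tests were chosen with earlier results of these data known. Some genes of the lists are counted but not reported here by name.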

Additional observations from a re-analysis of the deposited data

How the results depend on the processing

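The count of reproducible regions in the Hox windows, 21, became 14 at an IDR of 0.01, 22 at 0.1 and 54 with all regions of the overlap table. It was 13 with no flank, 16 with 50 kb and 26 with 200 kb, and any overlap with the window left it at 21. Each replicate alone gave 18 to 21. The 22 Hox genes with a reproducible region within 10 kb became 10 at a distance of 1 kb, 17 at 5 kb, 33 at 20 kb and 12 with the nearest Hox gene only, and each replicate alone gave 17 to 18. At a deposited value of 0.01 or lower, 42 peaks of replicate 1 and 83 of replicate 2 remained in the windows, at 0.001 or lower 26 and 42, and with no flank 52 and 100. A larger overlap lowered the share of peaks in both replicates from 64.8% to 61.5% for replicate 1. For replicate 2 the share fell from 36.4% to 32.5%. With midpoints within 100 bp the shares were 56.0% and 32.5%. These values lie within the intervals given above, which measure counting error over peaks and not the effect of the overlap rule. No paired analysis was possible because the IgG samples were not analysed here and the results come from no test. With 2 replicates and no read counts, the depth behind a peak is unknown.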

Other observations

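Many edges of the deposited peaks stood at cut sites of enzymes used for library preparation. Over all RefSeq promoter windows, where sequence was at hand, 1836 peak edges of replicate 1 and 3094 of replicate 2 were compared with the sites. At the position where AluI cuts stood 22.8% of the edges of replicate 1 and 16.5% of those of replicate 2, against 0.204% and 0.213% at the average of positions 3 to 8 bases away. At the position that MseI leaves once ends are filled stood 6.05% and 5.59%, against 0.0363% and 0.0485%. At that of HaeIII stood 0.545% and 1.13%, against 0.672% and 0.846%. The labels name AluI with MseI or HaeIII with MseI and do not say which pair was used for which sample. In the promoter windows within the Hox windows, 3 of 9 edges of replicate 1 and 5 of 10 of replicate 2 stood at an AluI or MseI position. Of 49 Hox peaks that overlapped one to one between replicates, 21 had the identical start and 19 the identical end (42.9% and 38.8%, beside 40.2% and 39.9% over all 16021 such pairs).

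At the weak end the IDR did not always follow the significance values. In HoxA, the region chr6:52196969-52197093 near Hoxa5 had values of 0.0371 and 0.0454 and an IDR of 0.189. The region chr6:52176444-52176695 in Hoxa3 had smaller values in both replicates, 0.00266 and 0.00738, and a higher IDR of 0.279. This pair was chosen after its values were seen.

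The window limit of 100 kb fell close to some regions. Just inside lay those at 98.8 kb beyond Hoxc4 and 98.9 kb beyond Hoxb1, the latter inside Skap1 with an IDR of 0.319. Just outside, the nearest were 114 kb beyond Hoxb1 (IDR 0.135), 118 kb beyond Hoxb13 (1.65e-05) and 141 kb beyond Hoxc4 (2.7e-05).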
